A study of Mus musculus with 6 samples.

Results

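The 10 genes described here are nuclear genes whose products copy, transcribe or stabilise the genome of the mitochondrion. They were taken by symbol from a fixed list (Tfam, Tfb1m, Tfb2m, Polrmt, Tefm, Twnk, Polg, Polg2, Lrpprc and Slirp), and each symbol matched 1 row of the 54532 genes in the deposited count table. They were measured by bulk RNA sequencing in mouse (C57BL/6) splenic CD4+ T cells, labelled as naive at the start of a 72 h culture. All 6 cultures held beads against CD3 and CD28, IL-2, and blocking antibodies to IL-4 and interferon-gamma. To these were added NETs (neutrophil extracellular traps, which are strands of DNA, histones and granule proteins shed by neutrophils) in 3 libraries and vehicle in the other 3. The labels do not tie a library to an animal or a separate culture, so each p-value reflects only how far these libraries spread, which may be technical.

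Mitochondria keep a small circular DNA that encodes subunits of the respiratory chain together with the rRNAs and tRNAs needed to translate them. Its transcription needs a single-subunit RNA polymerase, POLRMT, which TFAM and TFB2M bring to the promoters and TEFM keeps moving. Its replication needs the polymerase gamma holoenzyme, made of POLG and POLG2, behind the helicase Twinkle, and its mRNAs are held stable by the LRPPRC and SLIRP complex. Activated T cells enlarge their mitochondrial mass while they divide, so this machinery is in use in cells of this kind.

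The libraries held 15657622 to 18655997 counts. All 11 CD4 T cell markers checked (Cd4, Cd3e, Trac and others) were detected, with a summed level of 4992 to 5644 CPM (a gene's share of the library's counts, in parts per 1e6) with vehicle and 4972 to 5384 CPM with NETs. Markers of other cells were low. Those of CD8 T and NK cells summed to 23.8 to 27.8 CPM with vehicle and 15.8 to 25.5 with NETs, and those of B cells to 18.6 to 20.2 and 14.5 to 20.9. Erythroid markers summed to 0.965 to 1.31 CPM with vehicle and 0.990 to 2.62 with NETs. Neutrophil markers were higher in every NETs library (4.13 to 4.72 CPM against 1.68 to 2.94), with Ly6g, a defining marker, at 0 reads in all 6. The genes S100a9 and S100a8 carried most of this. S100a9 was at 0 in all vehicle libraries and at 0.932 to 1.30 CPM with NETs. The means of S100a8 were 0.0213 CPM (vehicle) and 0.530 CPM (NETs). S100a9 was called by limma-voom and limma-trend but not by edgeR (adjusted p of 0.170) or DESeq2. Macrophage and dendritic cell markers spanned 28.4 to 39.5 CPM with vehicle and 39.3 to 51.3 with NETs. Most of that was Lyz2, lysozyme, at 23.5 ± 5.77 CPM with vehicle and 36.02 ± 4.56 with NETs (log2 fold change 0.63, called by DESeq2 but not by edgeR). The part of these traces in the values below was not tested. In bulk RNA, fewer cells of a type and less RNA per cell cannot be told apart.

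The promoters of the 10 genes are shown first because most of them share a short sequence that the choice of genes did not use. RefSeq promoter windows of build GRCm38.p6 (250 bases before to 50 after the annotated start) matched all 10 genes, with 11 windows since Twnk has 2 starts. The core CCGGAAG, bound by ETS factors such as GABPA (also called NRF2, a regulator of many nuclear mitochondrial genes), was searched on both strands. It occurred in windows of 7 of the 10 genes (Tfam, Polrmt, Tefm, Polg, Polg2, Twnk and Slirp). Counted by window, it occurred in 7 of the 11 windows of the 10 genes. It occurred in 8.86% of all 32851 promoter windows and in 17.8% of the 12639 windows of genes that passed the expression filter. In 6 of the 7 genes a match began within 50 bases upstream of the RefSeq start. In Tfam, Polg and Tefm the deposited gene begins further upstream than the RefSeq start. Their matches therefore lie before the RefSeq start but inside the deposited gene. The core CGCATGCG of NRF1, another regulator of mitochondrial genes, was found in Tfb2m, and the shifted form GCGCATGC in Tfb2m, where both overlap, and in Polrmt. These occurred in 3.76% and 5.17% of the windows of expressed genes. The YY1 core AAGATGG was found in Slirp (7.02% of those windows), and the ESRRA site TCAAGGTCA (0.285%) and the E-box CACGTG (9.79%) in none of the 10. A match describes letters in a window and is not evidence of binding, and no binding was measured here.

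The windows below run from 150 bases before to 50 after the start, 5′ to 3′ on the gene's strand. Capitals mark the ETS, NRF1 and YY1 matches. They show the ETS core close to the RefSeq start of Tfam and Polrmt (transcription), Polg and Polg2 (replication) and Slirp (RNA stability). The NRF1 core lies just inside Tfb2m.
Tfam, chr10:71237995-71238194, minus strand: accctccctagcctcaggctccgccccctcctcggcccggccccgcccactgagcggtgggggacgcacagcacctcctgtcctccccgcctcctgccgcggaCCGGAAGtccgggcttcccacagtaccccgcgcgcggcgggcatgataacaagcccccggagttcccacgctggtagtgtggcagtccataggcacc
Polrmt, chr10:79746532-79746731, minus strand: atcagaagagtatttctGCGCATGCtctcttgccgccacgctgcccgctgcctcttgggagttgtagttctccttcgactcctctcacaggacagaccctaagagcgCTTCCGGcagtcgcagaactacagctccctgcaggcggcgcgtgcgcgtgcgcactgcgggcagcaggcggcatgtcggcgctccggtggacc
Tfb2m, chr1:179546227-179546426, minus strand: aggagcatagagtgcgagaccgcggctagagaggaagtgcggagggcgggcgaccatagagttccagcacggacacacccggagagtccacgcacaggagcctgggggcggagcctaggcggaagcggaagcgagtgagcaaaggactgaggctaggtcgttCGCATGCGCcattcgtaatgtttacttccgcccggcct
Polg, chr7:79466224-79466423, minus strand: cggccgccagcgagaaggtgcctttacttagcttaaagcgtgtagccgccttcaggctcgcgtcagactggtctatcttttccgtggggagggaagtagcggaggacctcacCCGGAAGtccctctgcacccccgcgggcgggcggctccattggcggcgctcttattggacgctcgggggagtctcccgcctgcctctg
Polg2, chr11:106779488-106779687, minus strand: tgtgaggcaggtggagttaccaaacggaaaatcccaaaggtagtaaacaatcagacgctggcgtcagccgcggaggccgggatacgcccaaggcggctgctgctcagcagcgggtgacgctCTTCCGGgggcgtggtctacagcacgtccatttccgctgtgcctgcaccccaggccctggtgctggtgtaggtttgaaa
Slirp, chr12:87443746-87443945, plus strand: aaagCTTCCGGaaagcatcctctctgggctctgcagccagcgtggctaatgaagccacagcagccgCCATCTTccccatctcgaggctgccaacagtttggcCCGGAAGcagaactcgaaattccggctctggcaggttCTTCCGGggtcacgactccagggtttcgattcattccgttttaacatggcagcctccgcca

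**Figure D1:**
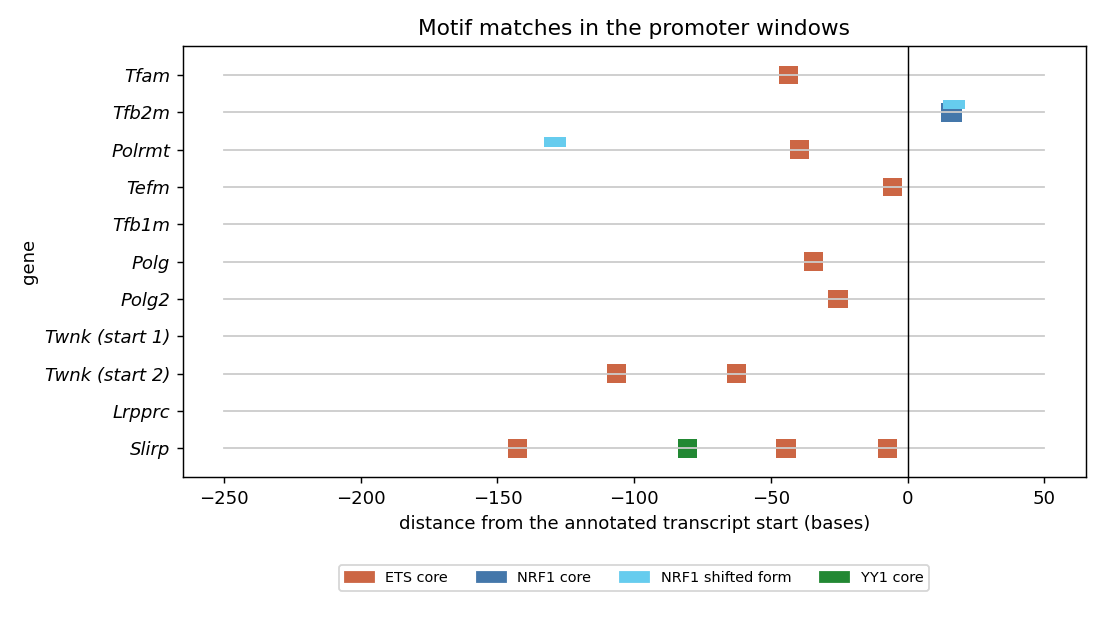
Motif matches (coloured blocks) by distance in bases from the RefSeq start of each of the 10 genes (rows, where Twnk has 2 starts). The ETS core lies within 50 bases upstream in 6 genes, and further upstream, beginning 66 and 110 bases before the start, in Twnk.

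The ETS core began 47 bases before the start in Tfam, 43 in Polrmt, 38 in Polg, 29 in Polg2 and 9 in Tefm. Slirp held 3 matches, at 146, 48 and 11 bases before its start. Tfb1m, Tfb2m and Lrpprc held no match to these letters in the window. The 7 genes with a match had log2 fold changes (NETs against vehicle, below) from −0.36 (Polg2) to 0.35 (Slirp, SE 0.49). The 3 without had 0.06, 0.05 and 0.15. Whether a match goes with the change was not tested, and 3 genes against 7 are too few to show it. Gabpa itself had means of 86.8 ± 3.09 CPM (vehicle) and 83.0 ± 7.63 CPM (NETs; SD, n = 3).

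All 10 transcripts were detected in all 6 libraries, over a wide range of levels. On the authors' FPKM scale (depth-scaled reads per kilobase), Polg, the catalytic subunit of the mitochondrial DNA polymerase, was the highest at 76.1 ± 6.47 (SD over the 6 libraries). Tfam, which both packages mitochondrial DNA and starts its transcription, followed at 55.3 ± 3.30 FPKM. Lrpprc stood at 24.5 ± 4.07, Polrmt at 20.4 ± 2.84, Polg2 at 17.1 ± 2.98 and Tfb2m at 16.6 ± 2.61 FPKM, and the libraries of neighbours in this stretch overlapped. Tfb1m (7.15 ± 1.10 FPKM), Tefm (6.17 ± 0.844) and Twnk (5.06 ± 0.926) formed a lower stretch whose neighbours also overlapped. Slirp was last at 1.63 ± 0.620 FPKM. The steps from Polg to Tfam, Tfam to Lrpprc, Tfb2m to Tfb1m and Twnk to Slirp were clear of overlap in these libraries. Polymerase and packaging protein thus led the order, and the highest mean was 46.7 times the lowest.

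**Figure D2:**
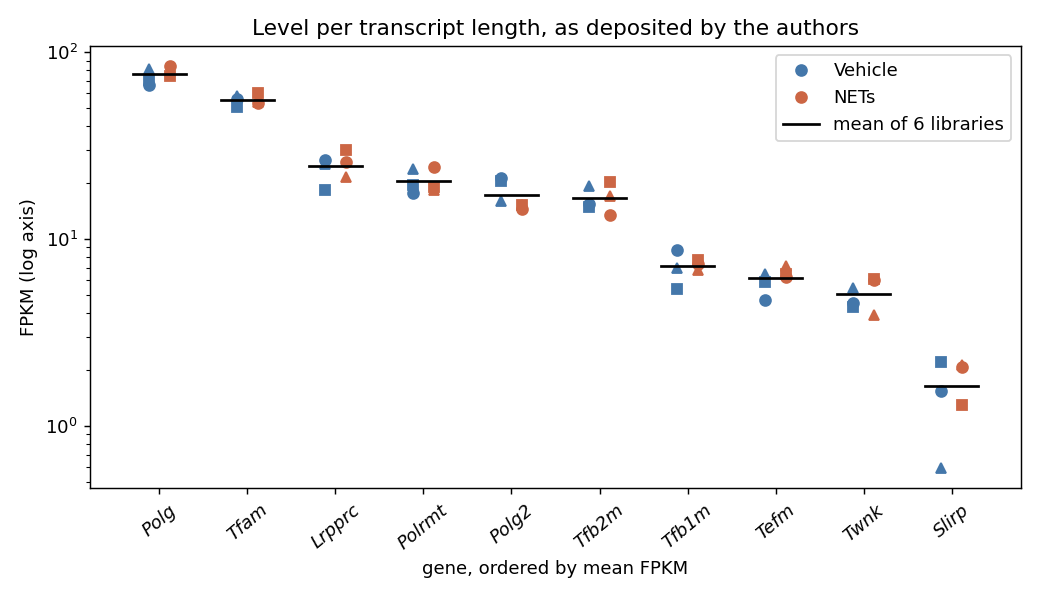
FPKM of each gene (log axis) in 3 Vehicle and 3 NETs libraries (points) with the mean of the 6 (bar). Polg and Tfam stand above the rest and Slirp below, and Vehicle and NETs points overlap in every gene but Polg2.

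That order depends on the length each gene was divided by. The length in the FPKM values came out at 1850 bases for Polg and 2019 for Lrpprc, against 10742 and 8504 bases of exon in the deposited table. For Twnk both were 3488. Per kilobase of the deposited length, Tfam came first at 17.2 CPM per kb, ahead of Polg at 13.1, and Lrpprc dropped from the third place to the sixth at 5.81. Slirp was last on both scales.

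The level of Slirp needs the genome map beside it. Slirp lies on chromosome 12 (87443896 to 87452206, plus strand, GRCm38) and ends inside Snw1, a splicing factor gene on the other strand. Of the 3104 exonic bases annotated for Slirp, 2914 (93.9%) are also exonic in Snw1, and 122 in Alkbh1. Only 68 exonic bases belong to Slirp alone. Snw1 had 954 to 1442 reads per library, while Slirp had 30, 36 and 10 reads with vehicle and 37, 25 and 38 with NETs. Whether the counting used strand is not given in the sources used here, so how many Slirp reads were left uncounted or assigned to Snw1 was not tested, and its level is uncertain. Exon overlap with a gene on the other strand was smaller for Twnk (12.6% of exonic bases, with Mrpl43), Polg (8.57%, with Fanci), Tfb1m (3.93%, with Tiam2) and Polg2 (3.03%, with Milr1). The other 5 genes had none.

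Between NETs and vehicle, 0 of the 10 genes passed the threshold by edgeR's quasi-likelihood test (adjusted p over all 13900 genes tested of 0.304 to 0.942), beside 0% of all genes tested. At an unadjusted p under 0.05 there was 1, Polg2, which was lower with NETs, beside 12.8% of all genes in either direction (6.72% higher and 6.06% lower). DESeq2, limma-voom and limma-trend on FPKM also called 0 of the 10, and each had 1, Polg2, at an unadjusted p under 0.05. DESeq2 gave no adjusted p for Tefm, Tfb1m and Slirp, so its count is over the other 7. By sign, 9 genes had a log2 fold change above 0 and 1 below, with a median of 0.10, beside 0.0012 over all genes tested, of which 50.2% lay above 0. The interval of the difference bounds what these libraries can show. In 7 of the 10 genes the 95% interval lay within a 1.5-fold change in either direction, and in 9 of 10 it included 0. The intervals of Slirp, Tefm and Polg2 reached beyond 1.5-fold.

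**Figure D3:**
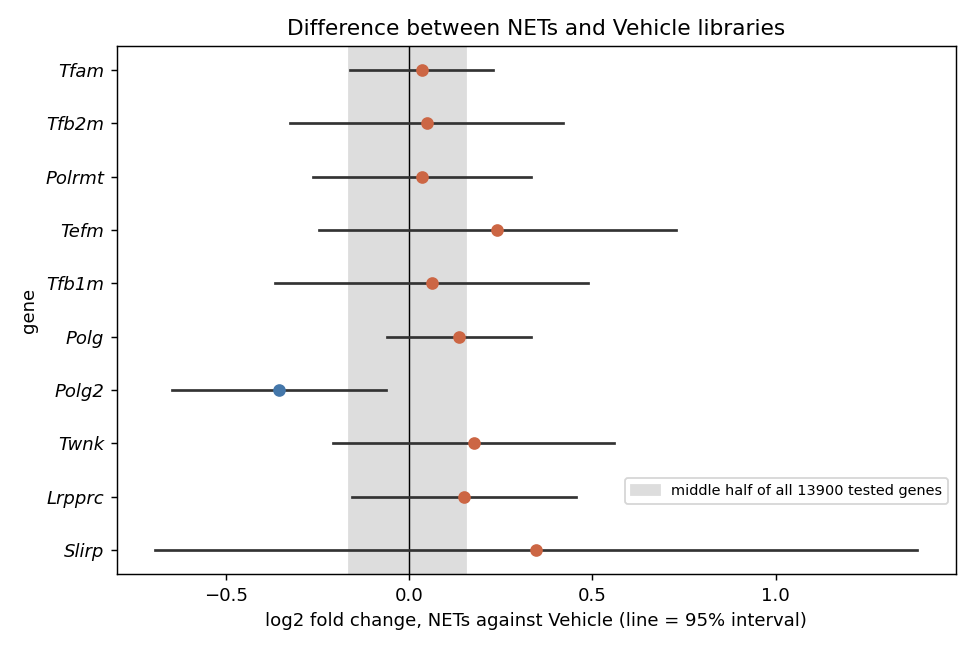
Log2 fold change of each gene (points) with its 95% interval (lines), ordered by role, against the interquartile range of all tested genes (grey band). The interval of Polg2 lies below 0 and those of the other 9 cross it.

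Transcription starts with TFAM, which bends the promoter DNA. Tfam (ENSMUSG00000003923; chromosome 10, 71225464 to 71238280) had 77.2, 70.4 and 80.01 CPM in the vehicle libraries, listed here and below by replicate number, against 73.6, 83.0 and 74.5 CPM in the NETs libraries. The groups overlapped, and highest and lowest library differed by 1.18-fold, the narrowest spread of the 10. Its log2 fold change was 0.03 (SE 0.09, with an adjusted p of 0.910 by edgeR), a fold of 1.02 with a 95% interval from 0.894 to 1.17.

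Tfb2m, which melts the promoter together with the polymerase, stood at 15.8, 15.2 and 19.6 CPM with vehicle and 13.7, 20.7 and 17.3 CPM with NETs. Its lowest and highest libraries were both NETs libraries, and its log2 fold change was 0.05 (SE 0.17). Polrmt, the RNA polymerase itself, stood at 33.8, 37.4 and 45.1 CPM with vehicle and 46.7, 36.4 and 35.2 CPM with NETs. Vehicle replicate 3 and NETs replicate 1 were its 2 high libraries, so the groups overlapped (log2 fold change 0.04, SE 0.14).

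Tefm, the elongation factor that lets the polymerase read long transcripts, stood at 4.72, 5.88 and 6.53 CPM with vehicle and 6.29, 6.52 and 7.23 CPM with NETs. Vehicle replicate 3 reached into the NETs range, so the groups overlapped. Its log2 fold change of 0.24 (SE 0.23, with an adjusted p of 0.690 by edgeR) rested on 88 to 124 reads per library. The paralog Tfb1m, whose product methylates the small mitochondrial rRNA, stood at 12.5, 7.73 and 10.01 CPM with vehicle and 10.5, 11.1 and 9.74 CPM with NETs. Both its extremes were vehicle libraries, and its log2 fold change was 0.06 (SE 0.20).

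Replication gave the one gene whose groups did not overlap. Polg2 (ENSMUSG00000020718; chromosome 11, 106768253 to 106779537), the accessory subunit that clamps the polymerase to its template, stood at 32.9, 31.6 and 24.7 CPM with vehicle and at 22.4, 23.4 and 23.4 CPM with NETs. The 3 NETs libraries lay together and below all vehicle libraries, of which replicate 3 was the nearest. Of all genes tested, 16.7% had groups that did not overlap, 7.68% higher with NETs and 9.04% lower. The means were 29.7 ± 4.39 and 23.0 ± 0.587 CPM (SD, n = 3). The log2 fold change was −0.36 (SE 0.14), a fold of 0.782 with a 95% interval from 0.639 to 0.957. It did not pass over all genes (unadjusted p = 0.0202, edgeR adjusted p = 0.304). Without vehicle replicate 3 the log2 fold change was −0.47 and the edgeR adjusted p 0.0598, in a fit that called 405 of all genes. The unadjusted edgeR p was 0.0898 with vehicle replicate 1 left out, 0.0690 with vehicle replicate 2 left out and 0.0573 with NETs replicate 1 left out.

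Polg, the catalytic partner of Polg2, stood at 124, 131 and 149 CPM with vehicle and 156, 138 and 147 CPM with NETs. Here vehicle replicate 3 lay inside the NETs range. The log2 fold change of Polg was 0.14 (SE 0.09, with an adjusted p of 0.552 by edgeR), from 2054 to 2671 reads per library. Twnk, the helicase that opens the DNA ahead of the polymerase, stood at 15.9, 15.1 and 18.96 CPM with vehicle and 21.0, 21.3 and 13.6 CPM with NETs. NETs replicates 1 and 2 were its highest libraries and NETs replicate 3 its lowest (log2 fold change 0.18, SE 0.18).

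The RNA stability pair came last. Lrpprc, a pentatricopeptide repeat protein that binds mitochondrial mRNAs, stood at 53.5, 36.8 and 50.7 CPM with vehicle and 52.2, 60.0 and 43.2 CPM with NETs. It was lowest in vehicle replicate 2 and highest in NETs replicate 2, a 1.63-fold range, and the groups overlapped (log2 fold change 0.15, SE 0.14). Slirp, its small RNA-binding partner, stood at 1.61, 2.30 and 0.622 CPM with vehicle and 2.15, 1.36 and 2.22 CPM with NETs. Its highest and lowest libraries were both vehicle. The log2 fold change of 0.35 (SE 0.49) carried the widest interval of the 10, from 0.618-fold to 2.62-fold, and without vehicle replicate 3 it was −0.02. At Slirp's mean count, counting error alone is 18.5% of the value, against 2.03% for Polg, figures that leave out variation from library preparation.

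**Figure D4:**
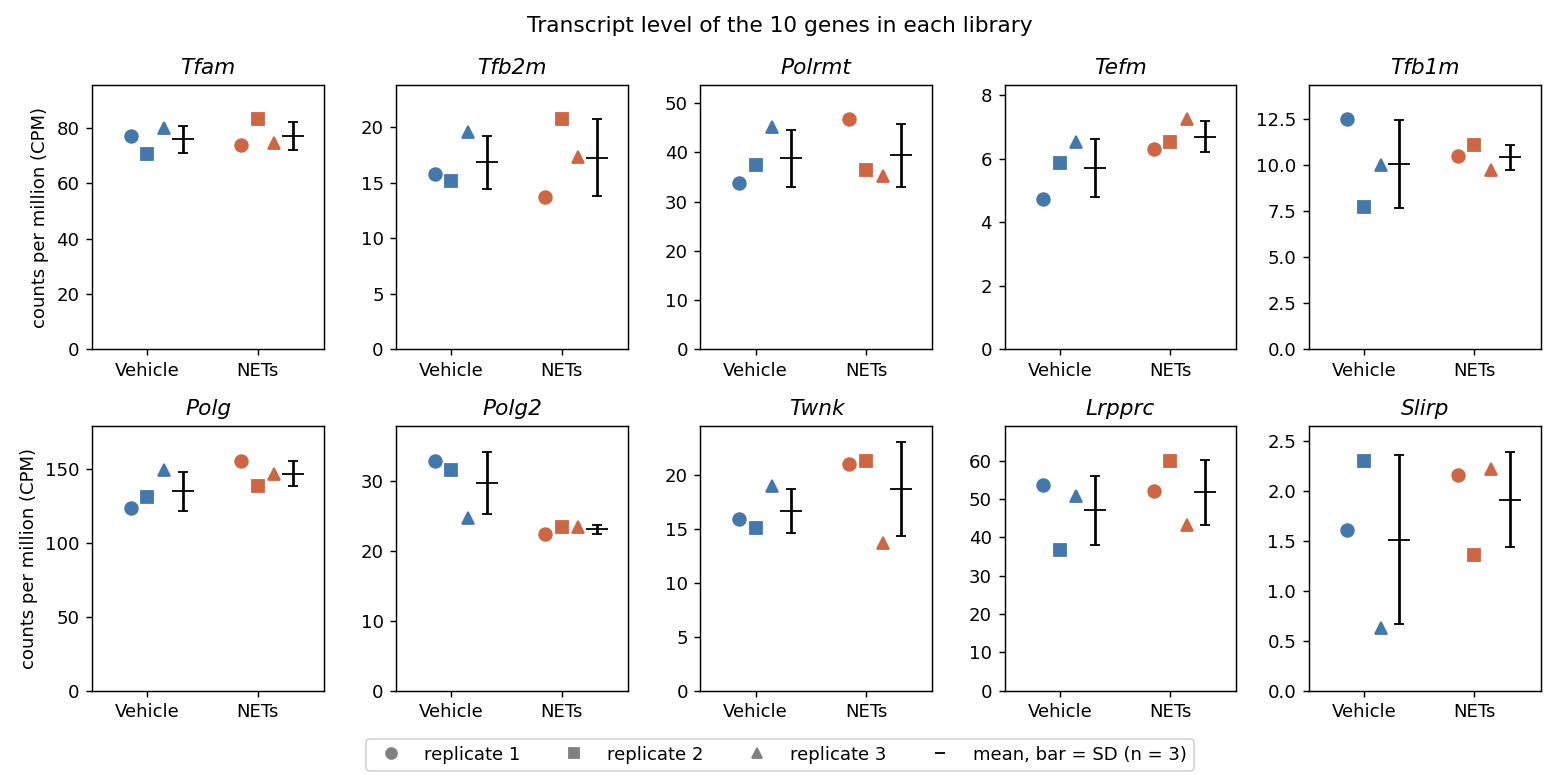
CPM of each gene in the 3 Vehicle and 3 NETs libraries (points, shaped by replicate) with mean and SD (n = 3). Polg2 is the one gene whose NETs libraries (22.4 to 23.4 CPM) all lie below its vehicle libraries (24.7 to 32.9 CPM).

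Proteins of this machinery work in pairs, so the ratio of partner transcripts was compared within each library, where library scaling cancels. Of 6 pairs, none separated the groups, and every p adjusted over the 6 was 1 (two-sided, by exact permutation, where 0.1 is the lowest p that 6 libraries allow). The ratio of Polg2 to Polg reads was 0.265, 0.241 and 0.165 with vehicle and 0.144, 0.169 and 0.159 with NETs. Vehicle replicate 3 fell among the NETs libraries and the other 2 vehicle libraries lay above all 4, so the groups overlapped. The log2 ratio differed by −0.48 (exact permutation p = 0.2). It ranged from −0.69 (without vehicle replicate 3) to −0.34 with 1 library left out. The mean log2 ratio differed between the groups by 0.35 for Slirp to Lrpprc (p = 0.7), by 0.22 for Tefm to Polrmt (p = 0.4) and by 0.05 for Tfb1m to Tfb2m (p = 0.6), all by exact permutation. It differed by 0.02 for Twnk to Polg and by −0.00022 for Tfam to Polrmt (exact permutation p = 1 each). Slirp to Lrpprc turned negative without vehicle replicate 3 (−0.25).

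No library was the highest or the lowest for most of the 10 genes. NETs replicate 2 held the highest CPM of 4 genes (Tfam, Tfb2m, Twnk and Lrpprc), vehicle replicate 1 and NETs replicate 1 of 2 each, and vehicle replicate 2 and NETs replicate 3 of 1 each. Vehicle replicates 1 and 2 each held the lowest value of 3. The mean log2 level of the 10 genes, set to 0 for the vehicle mean, was 0.01, −0.01 and −0.01 in the vehicle libraries, against 0.13, 0.12 and 0.05 with NETs. Each gene counted equally in this mean, also Slirp with its 10 to 38 reads per library, and the difference was not tested. By the distance between standardised profiles over the 6 libraries, the genes most like the mean of the 10 were Clns1a, Qrsl1, Lsm12, Vps45 and Tmem185a. They lay at 0.105 to 0.186, and the median of the 9567 candidates was at 1.24. They were picked for the smallest distances, so lying far below the median follows from the choice. Whether so close a match over 6 libraries is unusual among that many candidates was not tested. Qrsl1, a subunit of the mitochondrial glutamyl-tRNA amidotransferase, stood at 11.5, 10.3 and 10.5 CPM with vehicle and 13.6, 13.8 and 11.8 CPM with NETs.

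Of the 13 mRNAs that this machinery makes, 12 had a log2 fold change below 0, with a median of −0.25. The 13 mRNAs of the mitochondrial genome took 1.64%, 1.59% and 1.53% of counts with vehicle and 1.13%, 1.38% and 1.30% with NETs. The groups did not overlap (two-sided exact permutation p = 0.1, the smallest possible). This share is weighted to 1 gene, mt-Co1, which averaged 8248 ± 682 CPM with vehicle and 6142 ± 740 with NETs (SD, n = 3). All 13 together summed to 15270 to 16370 CPM with vehicle and 11338 to 13782 with NETs. The 3 with the smallest p, mt-Co1, mt-Co2 and mt-Nd6, had log2 fold changes of −0.41, −0.40 and −0.25. Their levels differed widely: mt-Co2 averaged 31.3 ± 2.84 CPM with vehicle and 23.6 ± 1.80 with NETs, and mt-Nd6 314 ± 20.6 and 261 ± 16.7. How fully the reads of each mRNA were counted was not tested. By edgeR 0 of the 13 were called, and 8 were lower at an unadjusted p under 0.05, beside 6.06% of all genes tested. The 13 come from 1 small genome, so they may not vary independently of each other, which was not tested. DESeq2 called 1, mt-Co1. Of the 2 rRNAs, mt-Rnr1 stood at −0.23 and mt-Rnr2 at 0.02, and neither passed (0 at an unadjusted p under 0.05). The share of counts on the rRNAs was 0.0697% ± 0.00501 with vehicle and 0.0665% ± 0.00961 with NETs (SD, n = 3 each; exact permutation p = 0.7).

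Other genes of the pathway were read from lists by role. In the lists below edgeR, limma-voom and limma-trend called 0 genes over all genes tested, and of the genes reported here DESeq2 called Pole4. Counts at an unadjusted p under 0.05 are by edgeR. Over all genes tested, 12.8% were at such a p and 50.2% lay above 0. Of 14 further genes of mitochondrial DNA replication and upkeep, 10 lay above 0 (median log2 fold change 0.09), and 1 was at an unadjusted p under 0.05. That was Fen1, a flap nuclease shared with nuclear replication, at 13.2 ± 3.17 CPM with vehicle and 19.5 ± 1.22 CPM with NETs (log2 fold change 0.58, SE 0.18, adjusted p of 0.229). Lonp1, the protease that degrades free TFAM, stood at 0.23 and Mgme1, an exonuclease of mitochondrial DNA, at 0.24. Of 6 further transcription regulators, 5 lay above 0 (median 0.11) and 0 were at an unadjusted p under 0.05 by edgeR. Mrpl12, a ribosomal protein reported to bind the polymerase, stood at 0.41, Mterf4 at 0.15 and Mterf3, a repressor of mitochondrial transcription, at −0.24.

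Of 15 RNA processing genes, 10 lay above 0 (median 0.09) and edgeR gave 0 at an unadjusted p under 0.05. Elac2, which cuts tRNA ends, stood at 0.22, the pseudouridine synthase Pus1 at 0.29 and the rRNA methyltransferase Mrm2 at 0.32. Of 16 further RNA stability and decay genes, 9 lay above 0 (median 0.06), with 2 higher at an unadjusted p under 0.05 by edgeR. These were Tbrg4 (FASTKD4), which stabilises some mitochondrial mRNAs, at 44.5 ± 7.15 CPM with vehicle and 55.3 ± 3.64 CPM with NETs (log2 fold change 0.33), and Rexo2, which degrades the shortest RNA fragments, at 153 ± 25.01 and 181 ± 9.67 CPM (0.26). Vehicle replicate 3 lay within the NETs range in both, at 52.7 CPM for Tbrg4 and 181 CPM for Rexo2. Pde12, which removes poly(A) tails, stood at 0.17.

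Genes that supply nucleotides leaned neither way as a list, with 6 of 13 above 0 and a median of −0.05. By edgeR 2 of the genes reported here were lower at an unadjusted p under 0.05, and neither passed over all genes. Samhd1, which breaks down deoxynucleotides, was at −0.36 and Slc25a36, a pyrimidine nucleotide carrier, at −0.24. Among 15 nuclear regulators of mitochondrial biogenesis, 14 were tested, 8 lay above 0, the median was 0.01, and edgeR gave 0 at an unadjusted p under 0.05. Nrf1 had means of 80.7 ± 3.10 CPM (vehicle) and 80.6 ± 1.32 CPM (NETs; SD, n = 3). The coactivator Ppargc1a had 1 read in all 6 libraries together, its relatives Ppargc1b and Pprc1 stood at −0.10 and 0.09, Esrra at 0.25, Gabpb1 at −0.16 and Ncor1 at −0.13.

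For comparison, 11 of 11 subunits of the nuclear replicative polymerases lay above 0, beside 50.2% of all genes tested. Their median was 0.19, against 0.10 for the 10 mitochondrial genes. By edgeR 0 passed the threshold, and 4 were higher at an unadjusted p under 0.05, beside 6.72% of all genes tested. Pole3, Pole4 and Pola2 stood at 0.42, 0.41 and 0.26. Whether this list differed from the 10 genes was not tested.

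**Figure D5:**
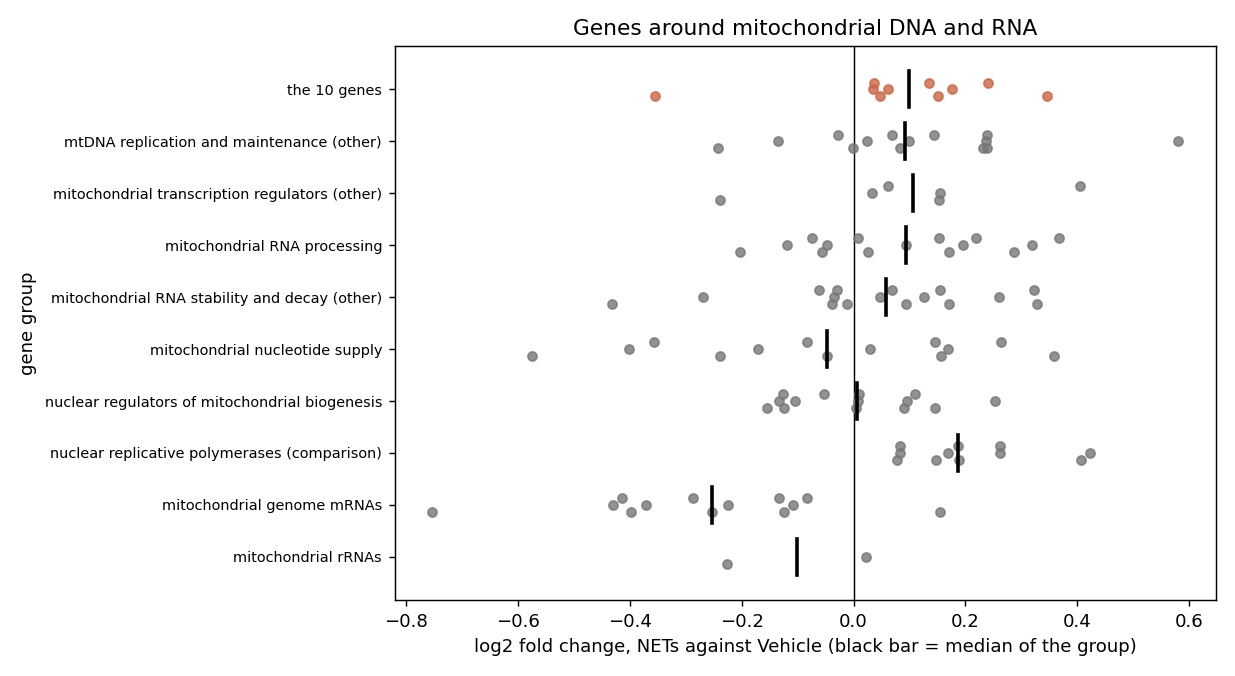
Log2 fold change of each tested gene (points) by gene group, with the group's median (bar). The 10 genes have a median of 0.10, the nuclear polymerases 0.19 and the mitochondrial genome mRNAs −0.25, and every group but the nuclear polymerases has genes on both sides of 0.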

How the data were processed

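Bulk RNA sequencing of 3 NETs and 3 vehicle libraries was read from tables of the whole series. Raw counts by Ensembl gene were deposited, and the annotated table held the same counts as the plain one. The submitters' processing notes name STAR, DESeq2 and mm9, but the coordinates of 98.3% of shared genes equal those of GRCm38 (GENCODE M21), which is used here. How reads were counted (tool, filters, strand) is not given in the sources used here. The authors also deposited FPKM values, used for levels between genes and as an alternative. Genes kept by filterByExpr (13900) were scaled by TMM and tested with edgeR 4.0.16 in R 4.3.3 (quasi-likelihood, robust, two-sided, group only), with Benjamini-Hochberg adjustment over all of them and a threshold of 0.05. All 10 genes passed the filter. Ratios and shares were compared by exact permutation. The fit was tested on simulated data. Alternatives were DESeq2 1.42.0, limma 3.58.1 (voom, and trend on log2(FPKM + 0.1) and log2(FPKM + 1)), other scalings and filters, a length trend, a replicate block and leaving out each library.

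The 10 genes and all lists were chosen with earlier results of these data known. Genes named were the 10, the 3 with the smallest p of each list, 5 by profile distance (mean of at least 5 CPM), and Nrf1, Gabpa, Ppargc1b and Pprc1. A gene that this rule names is not reported here. Snw1 and marker genes were named after the values were seen.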

Additional observations from a re-analysis of the deposited data

How the results depend on the processing

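Of 169 values of the 10 genes under alternatives, 160 kept their direction and 9 changed sign, all of them with 1 library left out. Of those with an adjusted p, 0 passed the threshold. The values with the length trend removed had no p, and DESeq2 gave no adjusted p for Tefm, Tfb1m and Slirp. The ranges over libraries left out were −0.016 to 0.072 for Tfam, −0.090 to 0.24 for Tfb1m, −0.10 to 0.19 for Tfb2m, −0.10 to 0.16 for Polrmt and −0.020 to 0.78 for Slirp. Without a sign change, Lrpprc ranged from 0.0095 (without vehicle replicate 2) to 0.26, Twnk from 0.076 (without NETs replicate 2) to 0.35, Polg from 0.066 (without vehicle replicate 1) to 0.21, Tefm from 0.11 (without vehicle replicate 1) to 0.35 and Polg2 from −0.47 to −0.29. They were −0.071 to 0.10 for mt-Rnr2, −0.013 to 0.050 for Nrf1, −0.34 to 0.036 for Ppargc1b and −0.024 to 0.25 for Pprc1. Log2 ratios ranged from −0.25 to 0.92 for Slirp to Lrpprc, −0.14 to 0.23 for Twnk to Polg, −0.11 to 0.26 for Tfb1m to Tfb2m and −0.11 to 0.16 for Tfam to Polrmt, and without a sign change from 0.081 to 0.39 for Tefm to Polrmt and −0.69 to −0.34 for Polg2 to Polg. The Nrf1 log2 fold change was −0.00296 with upper-quartile factors, −0.00144 with total counts only, −0.000856 and −0.000850 on FPKM with pseudocounts of 0.1 and 1, and −0.00386 with a mean CPM of at least 5. With the length trend removed mt-Rnr2 was −0.024. The causes were not tested.

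The median of the 10 genes ranged from 0.014 (without vehicle replicate 2) to 0.16 (without vehicle replicate 3), and was 0.046 with a mean CPM of at least 5, which drops Slirp. The number of the 10 at an unadjusted p under 0.05 ranged from 0 to 2, the latter Polg2 and Polg without vehicle replicate 3. List medians ranged from 0.036 to 0.18 (replication), 0.060 to 0.17 (transcription regulators), 0.00053 to 0.16 (RNA processing), 0.0053 to 0.081 (RNA stability), −0.15 to 0.045 (nucleotide supply), −0.027 to 0.043 (nuclear regulators), 0.10 to 0.26 (nuclear polymerases) and −0.30 to −0.20 (mitochondrial mRNAs). Genes called over all were 125 with DESeq2, 1 with limma-voom, 2 on FPKM at either pseudocount and 322 with no filter on low counts, and 0 to 405 with a library left out. Of the genes that the rule above names and that are reported here, markers aside, DESeq2 called Pole4 and mt-Co1. The fit with no filter called these and Samhd1, and the fit without vehicle replicate 3 called all 3 and Tbrg4, Rexo2 and Pole3. Deviations of same-numbered libraries correlated at −0.03, −0.06 and −0.18 for numbers 1 to 3, so the numbers were not taken to pair them. With the replicate block 0 genes were called, Polg2 stood at −0.35 (edgeR adjusted p = 0.501), the median of the 10 at 0.11, and 1 of the 10 was at an unadjusted p under 0.05. With differences within replicate numbers (the block), the ratios and the mitochondrial mRNA share kept their means, and the exact p cannot go below 0.25. Counting error was highest for Slirp (18.5%) and Tefm (9.71%), and the part of exon overlap in the low count of Slirp was not tested.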
